A study of Mus musculus with 7 samples.

Results

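The Hox cluster genes are the 39 mouse genes annotated as Hoxa, Hoxb, Hoxc or Hoxd followed by a number. Every gene of that name form with a row in at least 1 of the 7 libraries was taken as a member, which gave 32 of the 17784 genes in the data. The other 7 (Hoxa6, Hoxb1, Hoxb13, Hoxc12, Hoxd1, Hoxd3 and Hoxd4) had no row. No row of any library held only zeros, so a member without a row in a library was read as 0 there. The study asked how far donor cells take on an oligodendrocyte progenitor state, and what they keep of the donor, when transcription factors of that lineage are forced on them. Each of 7 populations of C57BL/6 mouse cells gave 1 single-cell library, in which 3′ tags of single droplet-captured cells were counted by their unique molecular identifiers (UMIs). The untreated populations were primary oligodendrocyte progenitor cells of the brain (pOPC, grown in OPC medium), embryonic fibroblasts (MEF, in MEF medium) and primary cerebral pericytes of the brain (PC, in pericyte medium). MEF-2F and PC-2F were the fibroblasts and the pericytes after transduction with Olig2 and Sox10, and MEF-3F and PC-3F after transduction with Olig2, Sox10 and Nkx6.2. The induced cells were grown in OPC medium. The labels do not give the time after transduction, the part of the embryo that was used or a vector-only control, so medium and transduction changed together and their parts in any difference from the donor cells cannot be told apart.

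Hox proteins are homeodomain transcription factors that give cells along the head-to-tail axis and in the limbs their regional identity. The genes lie in 4 clusters that arose by duplication, and genes in matching places of different clusters form paralog groups, numbered from 1 at the anterior end to 13 at the posterior end. Within a cluster, genes of low number are used first and furthest forward in the embryo, and those of high number later and further back, in the trunk, genital region and distal limb. The forebrain and midbrain develop without Hox expression. Fibroblasts of different body sites keep distinct sets of active Hox genes in culture, and Polycomb proteins hold the remaining Hox genes silent.

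In GRCm38 the Hoxa cluster lies on chromosome 6, with 10 of 11 annotated genes among the members. The Hoxb cluster lies on chromosome 11 from 96194316 to 96368256, with 8 of 10. The Hoxc cluster lies on chromosome 15 from 102921103 to 103036852, with 8 of 9, and the Hoxd cluster on chromosome 2 from 74668310 to 74765142, with 6 of 9. Promoter sequences from RefSeq (GRCm38.p6, 250 bases before to 50 after a start) were matched for 17 of the 32 members, which have 19 promoters. The 4 shown first belong to the member of each cluster with the highest level among those matched. Hoxa5, the member read most often in the pericyte-derived cells, and Hoxd13, which was read in MEF and at 0 in both transduced fibroblast libraries, were added after their values were seen. Each runs 5′ to 3′ on the strand of the gene, with CpG dinucleotides in capitals.
Hoxa7 promoter, chr6:52218524-52218823, minus strand: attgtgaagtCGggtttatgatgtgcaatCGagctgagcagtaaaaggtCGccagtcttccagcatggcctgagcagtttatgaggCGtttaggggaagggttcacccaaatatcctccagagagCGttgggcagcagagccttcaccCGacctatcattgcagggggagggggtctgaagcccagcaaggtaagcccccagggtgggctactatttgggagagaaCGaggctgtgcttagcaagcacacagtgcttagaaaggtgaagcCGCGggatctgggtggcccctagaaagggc
Hoxb4 promoter, chr11:96318017-96318316, plus strand: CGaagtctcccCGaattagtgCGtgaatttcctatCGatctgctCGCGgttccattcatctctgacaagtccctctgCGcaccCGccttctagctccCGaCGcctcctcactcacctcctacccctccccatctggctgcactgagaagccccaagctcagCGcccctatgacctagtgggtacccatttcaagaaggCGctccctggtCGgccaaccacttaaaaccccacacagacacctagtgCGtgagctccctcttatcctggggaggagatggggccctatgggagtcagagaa
Hoxc4 promoter, chr15:103034145-103034444, plus strand: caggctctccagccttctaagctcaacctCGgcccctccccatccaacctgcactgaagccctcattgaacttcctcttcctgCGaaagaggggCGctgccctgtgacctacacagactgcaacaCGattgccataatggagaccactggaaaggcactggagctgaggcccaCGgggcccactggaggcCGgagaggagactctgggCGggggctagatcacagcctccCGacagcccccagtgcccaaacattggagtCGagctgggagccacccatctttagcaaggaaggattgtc
Hoxd8 promoter, chr2:74704365-74704664, plus strand: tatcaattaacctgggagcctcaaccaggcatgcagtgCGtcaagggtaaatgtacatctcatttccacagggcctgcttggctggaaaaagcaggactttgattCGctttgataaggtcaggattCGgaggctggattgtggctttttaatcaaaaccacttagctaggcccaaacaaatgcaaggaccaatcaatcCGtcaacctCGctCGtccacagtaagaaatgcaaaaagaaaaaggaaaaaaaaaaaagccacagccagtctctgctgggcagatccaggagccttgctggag
Hoxa5 promoter, chr6:52204538-52204837, minus strand: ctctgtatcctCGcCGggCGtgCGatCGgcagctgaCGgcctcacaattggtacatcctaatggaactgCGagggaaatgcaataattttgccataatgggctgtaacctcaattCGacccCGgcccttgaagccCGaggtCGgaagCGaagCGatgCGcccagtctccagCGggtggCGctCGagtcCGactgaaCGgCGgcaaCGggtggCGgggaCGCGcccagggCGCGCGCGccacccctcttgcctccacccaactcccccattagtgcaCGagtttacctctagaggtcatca
Hoxd13 promoter, chr2:74667975-74668274, plus strand: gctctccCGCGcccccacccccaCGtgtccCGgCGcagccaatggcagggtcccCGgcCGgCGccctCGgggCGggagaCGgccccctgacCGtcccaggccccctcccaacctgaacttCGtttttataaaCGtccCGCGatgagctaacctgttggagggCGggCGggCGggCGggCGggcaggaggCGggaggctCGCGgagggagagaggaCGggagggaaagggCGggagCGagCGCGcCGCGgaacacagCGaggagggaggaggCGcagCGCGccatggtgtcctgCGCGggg
The Hoxd13 window holds 37 CpG dinucleotides and the Hoxa5 window 29, against 14 for Hoxb4, 9 each for Hoxa7 and Hoxc4, and 6 for Hoxd8. The 19 member promoters hold a median of 14, from 4 to 45, and the median over all 32851 promoters of the table was 7. The letters TGATNNAT, a form bound by Hox proteins together with Pbx partners, stand on either strand of 3 of the 19, those of Hoxa2, Hoxb8 and 1 start of Hoxd11, and on 8.85% of all promoters of the same length.

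The libraries kept 1124 of 1140 barcodes as cells, 82 (MEF-2F) to 290 (PC) each, and held 230375 (MEF-2F) to 1292374 (PC) UMIs, with medians of 1866 (MEF-3F) to 6259 (PC-2F) UMIs per cell. No 2 libraries shared a cell barcode. The deposited values are not UMI counts as they stand and were decoded to counts, an inference that no label states. No Hox entry of a cell exceeded 5 UMIs, a range in which simulated codes were read back exactly, but that simulation assumes the decoding. Olig2 was at 0 in MEF and PC, at 65.1 and 330 counts in every 1000000 UMIs (CPM) in MEF-2F and MEF-3F, at 191 and 88.2 CPM in PC-2F and PC-3F, and at 1656 CPM in pOPC. Of 8 pericyte markers, 4 (Rgs5, Kcnj8, Abcc9 and Vtn) were at 0 in PC and Pdgfrb was at 344 CPM there. Of 8 mesothelial and epithelial genes 3 had a UMI in PC, where Upk3b, Wt1, Krt8, Krt18 and Lrrn4 were at 0. Krt19 and Msln stood at 317 and 135 CPM in PC and at 7.60 CPM or less in the other 6 libraries. The X-inactivation RNA Xist stood at 1 UMI in MEF (1.27 CPM) but at 56.4 and 61.1 CPM in MEF-2F and MEF-3F, and what this reflects was not tested. The files of MEF-2F, MEF-3F and PC each join 2 blocks of barcodes that the labels do not explain.

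Summed Hox RNA divided the libraries by donor cell. It was abundant in the fibroblasts and stood at 0.899 to 0.996 times that level in the fibroblast-derived induced cells, it was not read in the pericytes or in the oligodendrocyte progenitors, and it was read at a low level, from the Hoxa cluster alone, in the pericyte-derived induced cells. Summed over the members, MEF held 389 UMIs, or 493 CPM (445 to 544, exact 95% Poisson interval). MEF-2F held 113 UMIs, or 491 CPM (404 to 589.7), and MEF-3F held 203 UMIs, or 443 CPM (384 to 508). The 3 intervals overlap. The level of MEF-2F was 0.996 times that of MEF (0.8003 to 1.23) and that of MEF-3F was 0.899 times (0.755 to 1.07). No test between populations can be made from 1 library each, and every interval given here covers counting error only and says nothing of how cultures vary. With libraries scaled by the trimmed mean of their log ratios in place of the total, which shifts MEF by -0.21 and MEF-2F and MEF-3F by 0.12 and 0.16 on the log2 scale, the 3 levels were 568, 451 and 398 CPM. The ratios to MEF were then 0.795 (0.639 to 0.982) and 0.7005 (0.588 to 0.832), so whether counting error separates the summed level from that of MEF depends on the scaling. The second block of MEF-2F, 17 cells, gave 304 CPM against 541 in the other 65 cells, and the first block of MEF-3F, 40 cells, gave 519.9 CPM against 424 in the other 121.

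In PC, 290 cells and 1292374 UMIs held 0 Hox UMIs, which at a floor of 3 UMIs allows up to 2.32 CPM. In pOPC, 134 cells and 632836 UMIs held 0, which allows up to 4.74 CPM at the same floor. Both limits lie below the intervals of the 5 other libraries. PC-2F held 37 Hox UMIs, or 30.9 CPM (21.7 to 42.5), at least 13.3-fold above PC set at that floor. PC-3F held 15, or 23.6 CPM (13.2 to 39), at least 10.2-fold above PC. With counting error in both libraries the lower limits of these ratios are 10.3 and 7.30. The pericyte-derived libraries stood well under their fibroblast-derived counterparts. With the same factors, MEF-2F was 15.9-fold above PC-2F (10.9 to 23.7) and MEF-3F was 18.8-fold above PC-3F (11.1 to 34.1). The 12 fibroblast markers did not divide the libraries in this way, at 25140 CPM in sum in MEF, with 14242 in MEF-2F and 7671 in MEF-3F, 5195 in PC, 10509.8 in PC-2F and 15342 in PC-3F. Dcn was at 0 in PC, and the part of these genes' cells in the Hox levels was not tested.

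**Figure D1:**
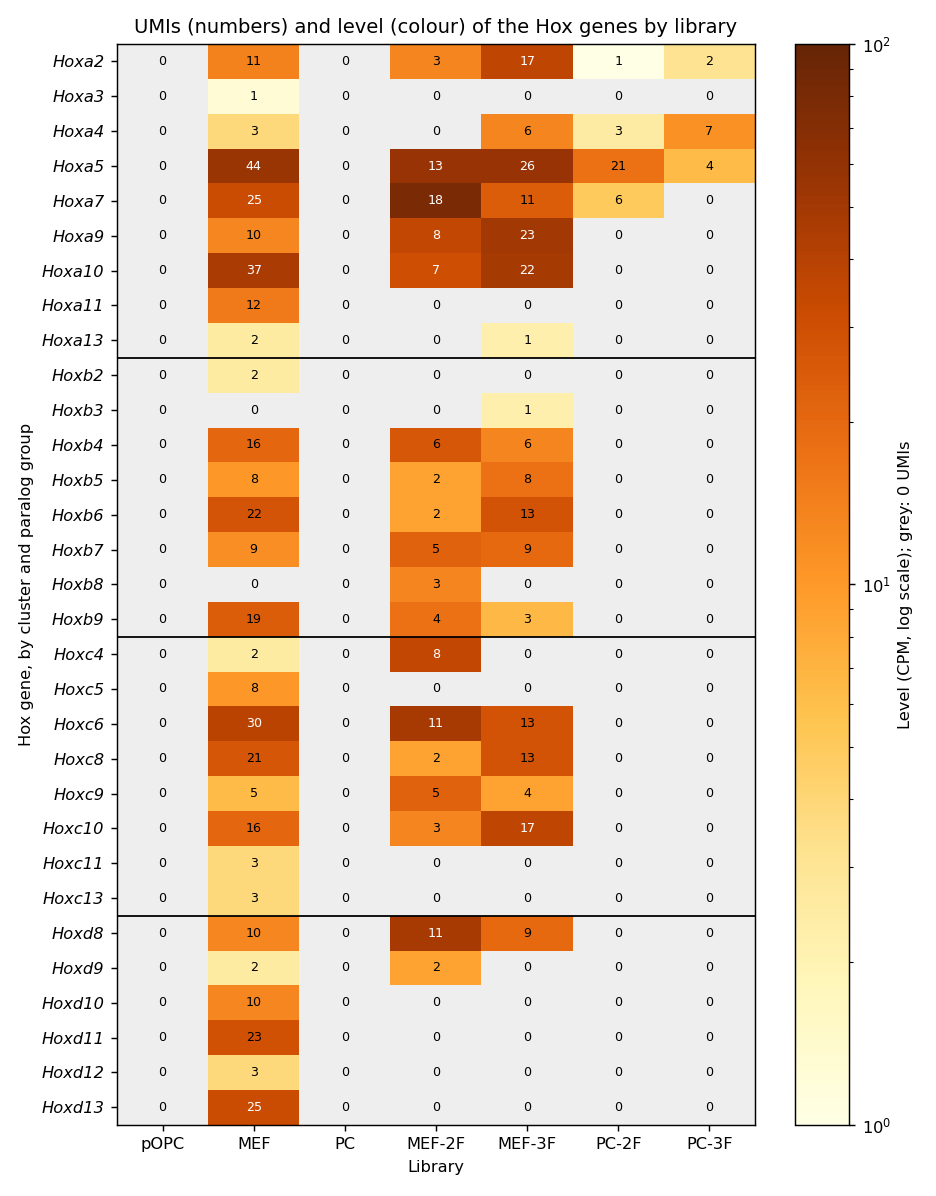
Level of the Hox genes of paralog groups 2 to 13 (rows, in cluster order) in the 7 libraries (columns), as CPM on a log colour scale, with UMIs printed in each field and grey for 0 UMIs. MEF, MEF-2F and MEF-3F hold levels in all 4 clusters, PC-2F and PC-3F in the Hoxa rows alone, and pOPC and PC in no row.

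More members were read in MEF than in its derived libraries, at a depth also greater than theirs. In MEF 30 of 32 members had a UMI and 24 had at least 3 UMIs in at least 2 cells. MEF-2F had 18 with a UMI and 14 by the stricter count, and MEF-3F had 19 and 16. Rarefied to the 230375 UMIs of MEF-2F, members with a UMI came to 25.3 in MEF, beside 18 in MEF-2F and 17.3 in MEF-3F. Members with at least 3 UMIs then came to 15.8, 14 and 13.4, a smaller gap. Rarefying matches total UMIs, not cells or UMIs per cell. PC-2F had 5 members with a UMI and PC-3F 4, all of them Hoxa genes. Hoxb3 was read in MEF-3F and Hoxb8 in MEF-2F without a UMI in MEF, at 1 and 3 UMIs.

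Hox RNA was spread over many cells. With every cell thinned to 1000 UMIs and shallower cells left out, 32.6% of 129 MEF cells had a Hox UMI, 32% of 75 MEF-2F cells and 33.6% of 122 MEF-3F cells. These shares lie within each other's exact binomial intervals. The cells left out as shallower numbered 2, 7 and 39. Without thinning the shares were 69.5%, 59.8% and 49.1%, in the order of the median depths of 4648, 2411 and 1866 UMIs. In PC-2F 3 of 178 thinned cells had a Hox UMI, 1.69% (0.349% to 4.85%), and in PC-3F 1 of 146, 0.685% (0.0173% to 3.76%). Thinning was done in 1 random draw, and shares from so few cells are uncertain. At 2000 UMIs per cell the shares were 7.83% and 5.97%. Without thinning 18.4% and 9.52% of cells had a Hox UMI, at median depths of 6259 and 4124 UMIs. In PC 0 of 290 unthinned cells had one, which at a floor of 3 cells allows a share of up to 1.03%, with an exact upper limit of 1.26%. In pOPC 0 of 134 had one, which allows up to 2.24% at that floor, with an exact upper limit of 2.72%. No single cell carried the signal, since the cell with the most Hox UMIs held 3.08% of them in MEF, with 7.96% in MEF-2F and 7.39% in MEF-3F, and 8.11% and 13.3% in the libraries PC-2F and PC-3F.

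**Figure D2:**
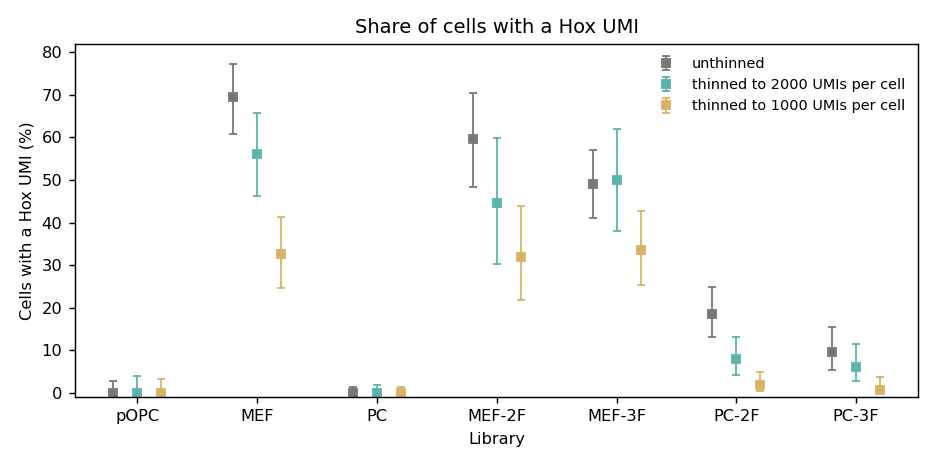
Percent of cells with at least 1 Hox UMI per library, with exact 95% binomial intervals, unthinned and with each cell thinned to 2000 or 1000 UMIs. The 3 fibroblast libraries lie at 32% to 33.6% at 1000 UMIs. PC-2F and PC-3F lie under 2% there, with upper limits of 4.85% and 3.76%, and pOPC and PC at 0 at each depth.

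Many fibroblast cells carried several Hox genes and clusters together. At least 2 members were read in 68 of 131 MEF cells, 28 of 82 MEF-2F cells and 35 of 161 MEF-3F cells, and the richest cells had 8, 7 and 8 members. MEF cells with UMIs from 1, 2, 3 and 4 clusters numbered 31, 37, 21 and 2. In MEF-3F these numbers were 51, 23, 5 and 0, in shallower cells. In PC-2F 0 of 179 cells and in PC-3F 0 of 147 had more than 1 member, at 37 and 15 Hox UMIs in all, too few to show whether members were read together.

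Cluster by cluster, the fibroblast-derived cells held Hoxa, Hoxb and Hoxc at levels that counting error does not separate from those of MEF, and MEF-3F held less Hoxd. The Hoxa genes summed to 192 CPM in MEF, with 213 in MEF-2F and 234 in MEF-3F. The Hoxb genes summed to 96.2, 95.5 and 87.3 CPM, and the Hoxc genes to 111, 126 and 103 CPM. Each of these 6 ratios to MEF has an interval that includes 1, under trimmed-mean scaling too. That scaling turned the Hoxa ratios of MEF-2F and MEF-3F from 1.11 and 1.21 to 0.882 and 0.945, and the Hoxc ratio of MEF-2F from 1.13 to 0.901. The Hoxd genes summed to 92.4 CPM (72.5 to 116) in MEF, 56.4 (30.05 to 96.5) in MEF-2F and 19.6 (8.98 to 37.3) in MEF-3F. MEF-3F was 4.71-fold lower than MEF in Hoxd (2.35 to 10.7), while the ratio of MEF-2F to MEF, 0.610, has an interval from 0.310 to 1.11, and from 0.248 to 0.886 under trimmed-mean scaling. Of the 13 Hoxd UMIs of MEF-2F, 6 lay in the 65 cells of the first block (33.1 CPM, 12.2 to 72.1) and 7 in the 17 cells of the second (142 CPM, 57.1 to 293), so the order of MEF-2F and MEF in Hoxd differs between the blocks. As shares of Hox UMIs, Hoxa made up 39.1% in MEF, beside 43.4% in MEF-2F and 52.7% in MEF-3F, and Hoxd 18.8%, 11.5% and 4.43%.

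**Figure D3:**
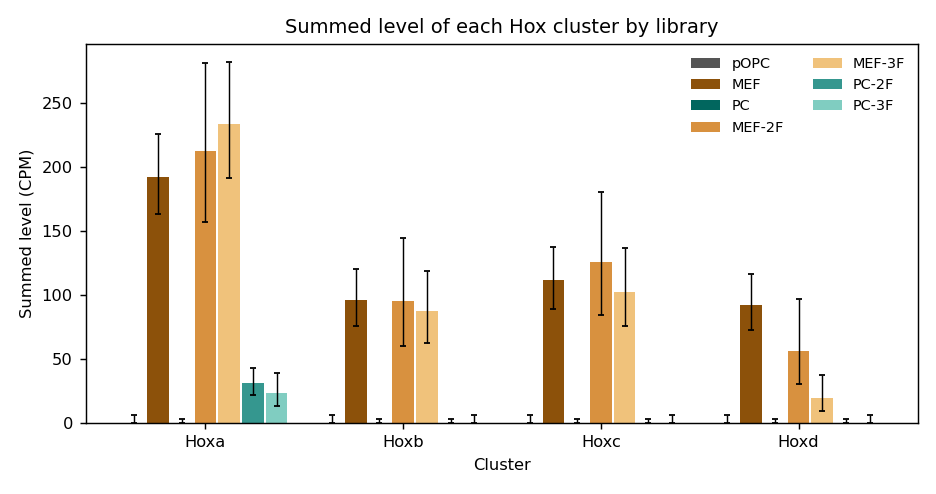
Summed level of each Hox cluster in CPM, 1 bar per library, with exact 95% Poisson intervals from counting error. Hoxa, Hoxb and Hoxc bars of MEF, MEF-2F and MEF-3F overlap in their intervals, Hoxd stands at 92.4, 56.4 and 19.6, and PC-2F and PC-3F have a bar for Hoxa only.

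The Hoxd difference lay at the posterior end. Hoxd10, Hoxd11, Hoxd12 and Hoxd13, the Hoxd genes known for patterning the limb and its digits, held 10, 23, 3 and 25 UMIs in MEF (12.7, 29.1, 3.799 and 31.7 CPM) and 0 in MEF-2F, in MEF-3F and in the other 4 libraries. Together they gave 61 UMIs or 77.2 CPM in MEF (59.1 to 99.2). At that level MEF-2F would have given 17.8 UMIs and MEF-3F 35.4, so with 3 UMIs as the floor they were at least 5.93-fold and at least 11.8-fold lower. The exact upper limits of their ratios to MEF were 0.214 and 0.107. Hoxd10 to Hoxd13 were not a planned sum and are the Hoxd members at 0 in both libraries, so these bounds only describe them. Hoxd8, a gene of the middle of the cluster, did not share this difference and stood at 12.7 CPM in MEF, with 47.7 in MEF-2F and 19.6 in MEF-3F. Hoxd9 had 2 UMIs in MEF, with 2 in MEF-2F and 0 in MEF-3F. Hoxd10 and Hoxd11 share exons with Gm28309 on the same strand, and Hoxd13 and Hoxd12 share exons with no other gene.

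At the ends of the Hoxa and Hoxc clusters the genes of groups 11 to 13 were read in MEF and stood at 0 or 1 UMI each in MEF-2F and MEF-3F. Hoxb9, the endmost Hoxb member with a row, held 19 UMIs in MEF, beside 4 in MEF-2F and 3 in MEF-3F. Hoxa11, which patterns the middle segment of the limb, held 12 UMIs in 12 MEF cells (15.2 CPM) and 0 in MEF-2F and MEF-3F, at least 2.32-fold lower in MEF-3F. It overlaps Hoxa11os on the opposite strand, and whether counting used strand is not stated. Hoxa13 had 2 UMIs in MEF and 1 in MEF-3F, Hoxc11 had 3 in MEF, and Hoxc13 had 3 in 1 MEF cell. The MEF levels of Hoxa13, Hoxc11 and Hoxc13 lie under the 3-UMI floors of 13.02 CPM (MEF-2F) and 6.55 CPM (MEF-3F). Their low counts in the derived libraries therefore show no difference. Over all clusters, paralog groups 11 to 13 gave 71 UMIs or 89.9 CPM in MEF, with 0 in MEF-2F and 1 in MEF-3F. With 3 UMIs as the floor MEF-2F was at least 6.90-fold lower, and the exact upper limit of its ratio to MEF was 0.183. MEF-3F was 41.2-fold lower (7.16 to 1649.9). Of the 71 UMIs, Hoxd11, Hoxd12 and Hoxd13 held 23, 3 and 25, so most of this sum repeats the Hoxd difference. Groups 11 to 13 were not a planned sum and take in the genes at 0 or 1 UMI, so these bounds only describe them. The planned posterior sum is given below. Xist, at 1 UMI in MEF, beside 13 in MEF-2F and 28 in MEF-3F, moved the opposite way, and its part in these differences was not tested. In summed libraries, fewer cells with the genes and less RNA per cell cannot be told apart.

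Paralog group 10, next to these, was read in all 3 fibroblast libraries. Hoxa10 stood at 46.9 CPM in MEF (37 UMIs in 26 cells), 30.4 in MEF-2F and 48.0 in MEF-3F. Hoxc10, which is used in hindlimb and lumbar regions, stood at 20.3, 13.02 and 37.1 CPM and shares exons with Hoxc5. With Hoxd10 included, group 10 came to 79.8, 43.4 and 85.1 CPM, and the ratios to MEF, 0.544 and 1.07, have intervals that include 1. Group 9 stood at 45.6, 82.5 and 65.5 CPM, and again both intervals of the ratio include 1. The posterior groups 9 to 13 as a whole were 1.71-fold lower in MEF-2F than in MEF (1.15 to 2.63) and 1.41-fold lower in MEF-3F (1.06 to 1.89). The central groups 4 to 8 stood at 251 CPM in MEF, 352 in MEF-2F (ratio 1.402, 1.07 to 1.82) and 249 in MEF-3F (0.992). Under trimmed-mean scaling these 2 ratios were 1.12 (0.853 to 1.46) and 0.773 (0.608 to 0.978). The anterior groups 1 to 3 stood at 26.6, 13.02 and 41.5 CPM, on 21, 3 and 19 UMIs.

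**Figure D4:**
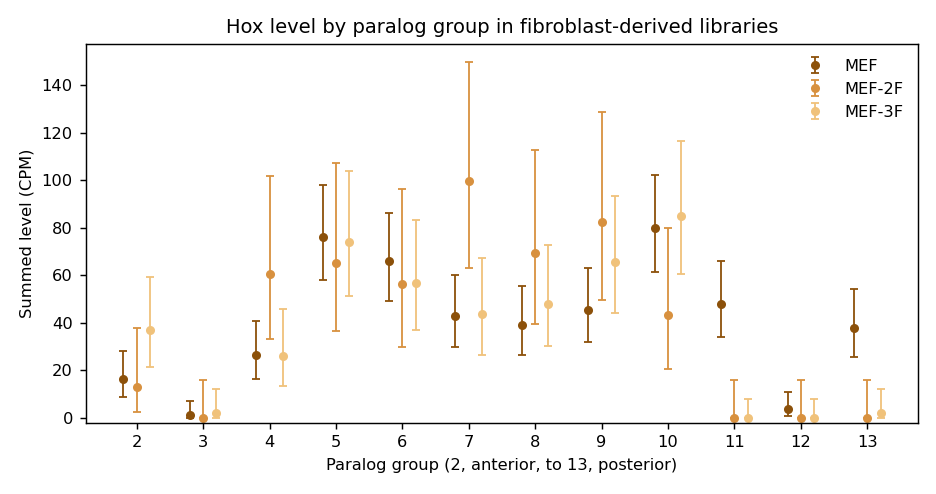
Level of paralog groups 2 (anterior) to 13 (posterior) in the 3 fibroblast libraries, in CPM summed over clusters, with exact 95% Poisson intervals. Groups 4 to 10 are filled in the 3 fibroblast libraries, and groups 11 to 13 sum to 89.9 in MEF, with 0 in MEF-2F and 2.18 in MEF-3F.

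A UMI of the posterior Hoxd genes, Hoxd10 to Hoxd13, was read in 25 of 131 MEF cells. These cells were deeper than the rest, with a median of 8156 against 3803 UMIs, so the share of cells with this RNA is not known. Some genes that did not choose these cells also differed in CPM between the 2 sets, a description within 1 library in which the cells are not replicates. Of the members that did not choose them, Hoxa10 and Hoxc8 alone had intervals that do not overlap. Others stood close together, such as Hoxa7 at 33.1 CPM in the 25 cells and 31.2 in the rest. Hoxb6 stood at 27.6 and 27.9 CPM and Hoxc6 at 38.6 and 37.8. Hoxa10 stood at 121 CPM in the 25 cells (76.1 to 184) and at 24.7 in the other 106 (13.8 to 40.7). Hoxa11 stood at 33.1 and 9.86 CPM, with overlapping intervals. The summed Hoxc level was 110.3 and 112 CPM, and the Hoxb level 71.7 and 104 CPM. All 11 UMIs of Hoxa2 and all 21 of Hoxc8 lay in the cells without a posterior Hoxd UMI, which held 608419 of the 789695 UMIs of MEF. For Hoxa2 the intervals overlap, at 0 to 20.3 CPM in the 25 cells and 9.03 to 32.3 in the other 106. For Hoxc8 they were 0 to 20.3 and 21.4 to 52.8 CPM.

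Differences of single members from the donor were read by a rule that calls a gene with at least 10 UMIs in either library when it differs at least 2-fold and its interval leaves out 1. In MEF-2F against MEF, 2 of the 16 measured members were higher, where 16.6% of all measured genes were, and 2 were lower, where 13% of all were. Both shares are near the background, and each of the 16 reached 10 UMIs in MEF, so these counts only describe the list. The 2 higher were Hoxa7, at 31.7 CPM in MEF and 78.1 in MEF-2F (2.47-fold, 1.27 to 4.71), and Hoxd8 (3.77-fold, 1.45 to 9.90). The 2 lower were Hoxd11 and Hoxd13, at least 2.24-fold and at least 2.43-fold. The median log2 ratio was -0.40 over the measured members and 0.05 over all measured genes. Under trimmed-mean scaling Hoxd8 alone was higher and Hoxa11 joined the lower members. In the first barcode block of MEF-2F alone Hoxa7 and Hoxa9 were higher, and in the second alone Hoxd8, with 0 members lower.

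In MEF-3F against MEF, 2 of 16 measured members were higher, where 21.8% of all measured genes were, and 5 were lower, where 13.1% were. The higher count lies under its background and the lower count over it. Each of the 16 reached 10 UMIs in MEF, and the 5 lower ones reached it there alone. Members that enter through MEF are more easily called lower, so these counts describe the list and support nothing further. The 2 higher were anterior and posterior Hoxa genes. Hoxa2, the gene of the second branchial arch, stood at 13.9 CPM in MEF and 37.1 in MEF-3F (2.66-fold, 1.18 to 6.29), with 13.02 in MEF-2F. Hoxa9, best known from blood progenitors, stood at 12.7 CPM in MEF, beside 34.7 in MEF-2F and 50.2 in MEF-3F (3.96-fold in MEF-3F, 1.81 to 9.33). The 5 lower were Hoxa11, Hoxd10, Hoxd11, Hoxd13 and Hoxb9. Hoxd10, Hoxd11 and Hoxd13 were at least 1.93-fold, at least 4.45-fold and at least 4.84-fold lower. Hoxb9, a gene of the thoracic region, stood at 24.1 CPM in MEF and 6.55 in MEF-3F (3.67-fold lower, 1.08 to 19.4), with 17.4 in MEF-2F. The median log2 ratio was -0.16 over the measured members and 0.20 over all measured genes. Under trimmed-mean scaling Hoxa9 alone was higher and the same 5 were lower. In the first barcode block of MEF-3F alone, 40 cells, Hoxc10 was higher and 0 members were lower. With a further minimum of 20 CPM, Hoxb9, Hoxd11 and Hoxd13 were lower.

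The remaining measured members were not called against MEF in either derived library, and several stood at much the same level. Hoxa5, a gene of the cervical and upper thoracic axis that acts in lung and skeleton, had 44, 13 and 26 UMIs, or 55.7 CPM in MEF, with 56.4 in MEF-2F and 56.7 in MEF-3F. Hoxa5 lies on chromosome 6 from 52201754 to 52204587 and shares exons with no other gene. Hoxc6, a thoracic gene, stood at 38.0, 47.7 and 28.4 CPM, and Hoxb4, a cervical gene also active in blood stem cells, at 20.3, 26.0 and 13.1 CPM. Hoxb6 stood at 27.9, 8.68 and 28.4 CPM and Hoxc8, which patterns the lower thorax, at 26.6, 8.68 and 28.4 CPM, with 2 UMIs each in MEF-2F. Hoxc4 showed the opposite order, at 2.53, 34.7 and 0 CPM on 2, 8 and 0 UMIs, below the 10 UMIs needed for a call. Of the 16 members under 10 UMIs in every library, none exceeded 34.7 CPM.

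Few members differed between the cells given 2 and 3 factors. In MEF-3F against MEF-2F, 10 members were measured, 0 were higher, where 9.37% of all measured genes were, and 1 was lower, where 7.01% were. That gene was Hoxa7, at 78.1 CPM in MEF-2F and 24.0 in MEF-3F, 3.25-fold lower (1.46 to 7.63). It was not called in the second block of MEF-2F alone or the first block of MEF-3F alone, and Hoxa7 overlaps Hoxaas3 on the opposite strand. The summed level of MEF-3F was 0.903 times that of MEF-2F (0.714 to 1.15). In PC-3F against PC-2F, Hoxa5 alone was measured and was not called, where 4.77% of all measured genes were higher and 6.49% lower.

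Against the pericyte-derived and progenitor libraries, each measured member was higher on the fibroblast side. A member is measured in these pairs only where a library with Hox RNA holds enough of it, a fibroblast library or, for Hoxa5, also PC-2F, so these counts describe the lists and support nothing further. MEF was higher than PC in 16 of 16, where 15.7% of all genes were. MEF-2F was higher than PC-2F in 4 of 4 (Hoxa5, Hoxa7, Hoxc6 and Hoxd8), where 10.5% were, and MEF-3F higher than PC-3F in 9 of 9, where 14.8% were. The first block of PC alone, 39 cells, left 8 of the 16, the second block of MEF-2F alone left 0 of the 4, and the first block of MEF-3F alone left 0 of the 9. Against pOPC the counts higher were 16 of 16 for MEF, where 20.1% were, 4 of 4 for MEF-2F, where 17.2% were, 9 of 9 for MEF-3F, where 19.3% were, and 1 of 1 for PC-2F, where 20.9% were. Those of MEF-2F and MEF-3F came to 0 in the same single blocks, and that of PC-2F to 0 with a further minimum of 20 CPM. PC and PC-3F had no measured member against pOPC.

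Among the pericyte-derived cells Hoxa5 led in PC-2F, and only there was a member called above PC. Hoxa5 held 21 UMIs in 17 of 179 PC-2F cells, or 17.5 CPM (10.8 to 26.8), and 4 UMIs in 4 of 147 PC-3F cells, or 6.30 CPM (1.72 to 16.1), and 0 in PC. It was the 1 member measured in PC-2F against PC, and it was higher, at least 7.55-fold, where 18.8% of all measured genes were higher. PC held 0 UMIs of every member, so a member is measured in this pair only through PC-2F and can only be called higher. The count of 1 therefore supports nothing further. Hoxa5 was not measured with a further minimum of 20 CPM, and it was not called against the first block of PC alone. No member was measured in PC-3F against PC. Hoxa7 held 6 UMIs in PC-2F and 0 in PC-3F. Hoxa2 held 1 and 2, and Hoxa4 held 3 and 7 UMIs, so that Hoxa4 was the most frequent in PC-3F. The ratio of PC-3F to PC-2F for Hoxa5 was 0.360 (0.0898 to 1.07).

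All 37 UMIs of PC-2F and all 15 of PC-3F came from the Hoxa cluster and from paralog groups 1 to 7. The interval of a share of 0 allows each of Hoxb, Hoxc and Hoxd up to 9.49% of Hox UMIs in PC-2F and up to 21.8% in PC-3F. In MEF-2F and MEF-3F, Hoxa made up 43.4% and 52.7%, and groups 9 to 13 made up 25.7% and 34.5%. The Hoxa share of the pericyte-derived libraries, 100% with lower limits of 90.5% and 78.2%, lies above the upper limits of 53.0% and 59.7% in MEF-2F and MEF-3F. Hoxa4 shares exons with Gm29430 and Hoxa7 with Hoxaas3 on the opposite strand, and Hoxa2 with Gm28308 on the same strand. Over the members that share no exon, which in these libraries leaves Hoxa5 alone, the summed level was 17.5 CPM in PC-2F against 6.30 in PC-3F. It was 320.4 CPM in MEF, beside 343 in MEF-2F and 259.7 in MEF-3F.

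Hox RNA was read in cells with an Olig2 or Sox10 UMI and in cells with neither. Cells with neither were shallower in each library split, and absence of a UMI does not show absence of factor RNA. Their median depths were 1262 against 2684 UMIs in MEF-3F, and 1863 against 2660 in MEF-2F. In PC-2F they were 5756 against 6552 UMIs, and in PC-3F 3625 against 4231.5. In MEF-3F the 84 cells with an Olig2 or Sox10 UMI stood at 403 CPM (335 to 479) and the 77 with neither at 529.8 (418 to 662). In MEF-2F the values were 378 CPM (260 to 530.4) in 27 cells and 559 (444 to 696) in 55. Intervals overlap in both libraries, and MEF-3F cells with UMIs of both factors, 28 in number, stood at 475 CPM. No posterior Hoxd UMI was read on either side of these splits. In PC-2F the 122 cells with either factor stood at 32.3 CPM (21.5 to 46.7) and the other 57 at 27.02 (12.4 to 51.3). In PC-3F 14 of the 15 Hox UMIs lay in the 82 cells with either factor, 37.4 CPM (20.5 to 62.8) against 3.84 (0.0971 to 21.4) in the other 65. Split by the share of collagen RNA (Col1a1, Col1a2 and Col3a1), PC-2F stood at 17.9 CPM above the median (8.95 to 32.1) and 44.4 (29.0 to 65.1) at or below it. MEF-3F stood the other way, at 534 CPM (439 to 643) and 368 (296 to 451). In both of these libraries the intervals overlap only at their ends. An interval of the ratio was not computed for any split here, so overlap does not show that counting error covers a difference. MEF-2F stood at 475 and 508 CPM and PC-3F at 22.1 and 25.2, also with overlapping intervals. Both sides held Hox RNA in each library.

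Of 18 non-coding and antisense genes of the clusters, 5 had a UMI in MEF, with 4 in MEF-2F and 4 in MEF-3F, 1 in PC-3F and 0 in the other 3 libraries. Hoxb3os was the 1 that was measured in any pair. Hoxb3os, an antisense RNA that overlaps Hoxb3 and Hoxb2, stood at 32.9 CPM in MEF, with 30.4 in MEF-2F and 45.8 in MEF-3F and was at 0 in the other 4 libraries. Hoxa11os had 6 UMIs in MEF and 0 elsewhere, under the 10 UMIs needed to be measured, so its 0 in the derived libraries shows no difference. Of 12 genes that flank the clusters, 10 had a UMI in MEF and 7 in each of the other 6 libraries. Evx1, Evx2 and Skap1 were read in MEF alone, at 2, 1 and 1 UMIs. Skap2, a signalling adaptor 143 kb beyond the anterior end of the Hoxa cluster, stood at 8.51 CPM in PC, 154 in PC-2F (18.1-fold higher, 9.90 to 36.9) and 102 in PC-3F (12.03-fold higher, 6.30 to 25.3). Its level was 49.4 CPM in MEF, beside 39.1 in MEF-2F and 85.1 in MEF-3F, and 6.32 in pOPC. Snx10, further out on the same side, stood at 55.7 CPM in PC, 91.7 in PC-2F and 112 in PC-3F. Hibadh, beyond the Hoxa13 end, stood at 92.1, 82.6 and 53.6 CPM. Of 7 measured flanking genes, 2 were higher and 1 lower in PC-2F against PC, where 18.8% and 12.8% of all measured genes were, and 2 higher and 1 lower in PC-3F, where 17.7% and 14.6% were. Among 5 in MEF-2F and 6 in MEF-3F against MEF, 1 and 2 were higher, where 16.6% and 21.8% of all were, and 1 and 0 lower, where 13% and 13.1% were.

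The TALE homeodomain proteins of the Pbx, Meis and Pknox families bind DNA together with Hox proteins. Of their 9 genes, 1 of 8 measured was higher and 0 lower in MEF-2F against MEF, and 3 of 9 were higher and 0 lower in MEF-3F, where 16.6% and 21.8% of all measured genes were higher and 13% and 13.1% lower. In PC-2F 2 of 8 were higher and 1 lower than in PC, and in PC-3F 1 of 7 was higher and 1 lower, where 18.8% and 17.7% of all were higher and 12.8% and 14.6% lower. Pknox2 was higher in each of the 4, at 13.9 CPM in MEF, 43.4 in MEF-2F (3.12-fold, 1.19 to 8.08) and 67.7 in MEF-3F (4.86-fold, 2.38 to 10.7). It stood at 6.96 CPM in PC, 32.5 in PC-2F (4.67-fold, 2.23 to 10.97) and 37.8 in PC-3F (5.43-fold, 2.44 to 13.3), and at 66.4 in pOPC. Meis1 stood at 39.3 CPM in MEF, with 34.7 in MEF-2F and 37.1 in MEF-3F, but at 2.32 in PC and 12.5 in PC-2F (5.39-fold higher, 1.52 to 29.0). Meis2 was lower in both pericyte-derived libraries, from 101 CPM in PC to 45.0 (2.23-fold) and 45.7 (2.20-fold).

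Polycomb proteins write or read the marks that keep Hox genes silent. Of 17 genes, 1 of 10 measured was higher and 0 lower in MEF-2F against MEF, 5 of 14 higher and 0 lower in MEF-3F, 4 of 16 higher and 1 lower in PC-2F against PC, and in PC-3F 3 of 16 higher and 1 lower. Of all measured genes, 16.6%, 21.8%, 18.8% and 17.7% were higher in these 4 pairs and 13%, 13.1%, 12.8% and 14.6% lower. Jarid2, a partner of the methylating complex, stood at 8.86 CPM in MEF and 30.6 in MEF-3F (3.45-fold, 1.30 to 10.1). In PC it stood at 4.64 CPM, with 20.02 in PC-2F (4.31-fold, 1.72 to 12.9) and 42.5 in PC-3F (9.16-fold, 3.71 to 27.1), and in pOPC at 53.7. Phf19, another partner, stood at 32.5 CPM in PC, 10.01 in PC-2F (3.25-fold lower) and 9.45 in PC-3F (3.44-fold lower). Of 7 measured genes of the opposing trithorax group and the demethylases, 2 were higher and 1 lower in MEF-2F, and 1 higher and 0 lower in each of the other 3 pairs, where the same shares of all measured genes apply.

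Retinoic acid and growth factors set Hox expression in the embryo. Of 14 genes of this kind, 3 of 8 measured were higher and 2 lower in MEF-2F against MEF, 2 of 8 higher and 2 lower in MEF-3F, 2 of 7 higher and 2 lower in PC-2F against PC, and in PC-3F 0 of 5 higher and 1 lower. The shares of all measured genes in these pairs were 16.6%, 21.8%, 18.8% and 17.7% higher and 13%, 13.1%, 12.8% and 14.6% lower. Crabp1, a carrier of retinoic acid, stood at 154 CPM in MEF, 30.4 in MEF-2F (5.08-fold lower, 2.39 to 12.9) and 4.36 in MEF-3F (35.4-fold lower, 9.59 to 296). Crabp2, another carrier, held 54 UMIs in MEF (68.4 CPM) and 0 in MEF-2F and MEF-3F, at least 5.25-fold and at least 10.4-fold lower. Gdf11, a ligand that promotes posterior Hox genes in the trunk, stood at 31.7 CPM in MEF, 156 in MEF-2F (4.94-fold, 2.88 to 8.58) and 159 in MEF-3F (5.03-fold, 3.16 to 8.27). Egr2, a hindbrain and Schwann cell regulator of Hox genes, stood at 29.1, 199.7 and 107 CPM, and at 0 in PC and 15.8 in PC-2F.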

How the data were processed

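Cells were captured on the ddSEQ system and 3′ tags of transcripts were counted by UMI, per the labels' protocols, in 7 libraries of 1 population each. The submitters' processing notes list STAR 2.5.3a and the mm10 genome, UMI-tools 0.5.3, featureCounts 1.6.1 and bcl2fastq 2.19.1.403 without their roles. Their settings, and whether counting used strand, are not given in the sources used here. The deposited values are of another unit than UMI counts, which the plan had assumed. Each was read, block by block, as a rank among the occurring UMI counts after these were sorted as text, and decoded by aligning codes to counts. Codes read with a probability over 0.99 held 91.7% to 99.1% of UMIs, and levels of large counts are less certain. Tested on simulated data, decoding was exact for all entries up to 20 UMIs.

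Cells were barcodes of 500 UMIs or more with a mitochondrial share under 20%, and UMIs were summed per library and divided by its total (CPM). One tag per molecule is counted, so levels are not corrected for length. Levels carry exact Poisson intervals, ratios exact conditional binomial intervals and shares exact (Clopper-Pearson) intervals, all at 95%. A library at 0 was set at 3 UMIs to give a bound. Such a bound leaves out counting error in the other library, and the exact limit of the ratio can lie nearer to 1. Log2 ratios add 0.5 UMIs per library. A gene was measured at 10 UMIs or more in either library of a pair and called where the ratio reached 2-fold and its interval left out 1, in 15 pairs, and the same calls over all genes are the background. Members, lists and splits were chosen with earlier results of these data known. Each member with 10 UMIs or more in any library is named, and so are at most 4 genes of each related list at 20 CPM or more with the largest ratios, with others beside them for context. Some of those genes are not reported here. Hoxc4 and the cells with a posterior Hoxd UMI were singled out after the values were seen. The sums over Hoxd10 to Hoxd13 and over paralog groups 11 to 13 were not in the plan. Alternatives were another minimum level, 4-fold, trimmed-mean scaling (an own implementation), other filters on cells, members sharing no exon, each cell and gene counted once, and each block alone. No doublet caller was run. Gene coordinates and overlaps come from GENCODE M21 (GRCm38, the assembly of mm10). Python 3.11.15, numpy 2.4.6 and scipy 1.17.1 were used.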

Additional observations from a re-analysis of the deposited data

How the results depend on the processing

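Of 305 recomputed values, 259 stayed within the counting interval of the reported value or within 1.5 times a reported count, and 46 did not. Among these no called value changed sign; ratios of cluster sums that trimmed-mean scaling turned stand beside those sums. No paired analysis was possible because each population has 1 library. No MEF-2F cell had UMIs of both Olig2 and Sox10, so that setting gave no value there. Over the members that share no exon, the summed level was 320.4 CPM in MEF, with 343 in MEF-2F and 259.7 in MEF-3F, against 17.5 in PC-2F and 6.30 in PC-3F. Counting each cell and gene once gave 357 CPM in MEF and 351 in MEF-3F, and trimmed-mean scaling gave 568 CPM in MEF. The second block of MEF-2F gave 304 CPM and the first block of MEF-3F 519.9 CPM. Rarefied to 230375 UMIs, members with at least 3 UMIs came to 15.8 in MEF, beside 14 in MEF-2F and 13.4 in MEF-3F, with 0.984 in PC-2F and 0.636 in PC-3F, and PC-3F had 4 members with at least 1 UMI. The share of cells with a Hox UMI, unthinned and at 2000 UMIs per cell, was 69.5% and 56.1% in MEF, 59.8% and 44.7% in MEF-2F, and 49.1% and 50% in MEF-3F. The pericyte-derived values were 18.4% and 7.83% in PC-2F, with 9.52% and 5.97% in PC-3F.

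Asking for 4-fold with an interval beyond 2-fold left 0 members higher and 0 lower in MEF-2F against MEF, 0 higher and 2 lower in MEF-3F against MEF, and 0 lower in MEF-3F against MEF-2F. Trimmed-mean scaling left 1 higher in each of MEF-2F and MEF-3F against MEF. A further minimum of 20 CPM left 3 lower in MEF-3F against MEF and 0 higher in PC-2F against PC and against pOPC. With the second block of MEF-2F alone, 1 was higher and 0 lower against MEF, 0 higher against PC-2F, 0 higher against pOPC, and 0 lower in MEF-3F against MEF-2F. With the first block of MEF-3F alone, 1 was higher and 0 lower against MEF, 0 higher against PC-3F, 0 higher against pOPC, and 0 lower against MEF-2F. With the first block of PC alone, 8 were higher in MEF against PC and 0 in PC-2F against PC. A single block holds fewer UMIs, so fewer members reach 10 UMIs or an interval that excludes 1. At 3 UMIs the floor was 13.02 CPM in MEF-2F and 6.55 in MEF-3F, so single posterior genes under those levels in MEF cannot be compared.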

Other observations

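A list of 20 limb patterning genes, made after the Hox levels were seen, was read beside the posterior Hox genes. It had a UMI for 18 genes in MEF, with 11 in MEF-2F and 11 in MEF-3F, then 13 in PC, 15 in PC-2F, 10 in PC-3F and 1 in pOPC. These counts were not matched for depth, and MEF held 789695 UMIs against 230375 (MEF-2F) and 458226 (MEF-3F). Genes with few UMIs in MEF, such as Tbx4 at 1 and Pitx1 at 3, can be missed in a shallower library. The counts alone therefore show no loss of limb genes. Msx2, a transcription factor of limb and skull mesenchyme, held 33 UMIs in MEF (41.8 CPM) and 0 in MEF-2F and MEF-3F. Msx1, its relative, stood at 25.3 CPM in MEF, with 0 in MEF-2F and 4.36 in MEF-3F. Hand2, which sets the posterior side of the limb bud, held 8 UMIs in MEF and 0 in MEF-2F and MEF-3F. Its 10.1 CPM in MEF lies under the 13.02 CPM floor of MEF-2F, so that pair cannot be compared. Shox2, a gene of the proximal limb, was read in both derived libraries, at 15.2 CPM in MEF, beside 52.1 in MEF-2F and 15.3 in MEF-3F. Tbx2 stood at 5.07, 34.7 and 8.73 CPM in the same order, and Tbx18 at 17.7, 8.68 and 19.6 CPM. Gli3, the repressor side of the hedgehog pathway in the limb, stood at 149, 39.1 and 78.6 CPM. Tbx5 of the forelimb had 6 UMIs and Pitx1 of the hindlimb 3 UMIs in MEF.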
